A study of Mus musculus with 2 samples.

Results

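The 9 genes described here encode the MHC class I antigen presentation pathway of the mouse: the light chain B2m, the heavy chains H2-K1, H2-D1, H2-T22 and H2-T23, the peptide transporter subunits Tap1 and Tap2, the loading factor Tapbp and the transcriptional activator Nlrc5. They were found by their symbols among the 32285 genes listed in the files, and each of the 9 was present with UMIs in both libraries. Their levels were compared between hair bulb cells and cells of the upper hair follicle and epidermis, within each of the 2 libraries.

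Epithelial cells that carried tdTomato were sorted from mouse back skin at postnatal day 1 (P1) and sequenced as single cells. The 2 libraries, of batch 1, are labelled WT (PADI4 WT below) and PADI4 cKO. PADI4 cKO stands for a conditional knockout in which K14-Cre, a Cre recombinase driven by the keratin 14 promoter of epithelial cells, deletes floxed alleles of Padi4 (Padi4 fl/fl), an enzyme that converts arginine to citrulline. Animals of both groups carried K14-Cre and the tdTomato Ai14 reporter, whose fluorescence was used to sort the cells from the dermal fraction after the epidermis had been peeled off, so that epidermal cells were few. The labels and methods give neither the number of animals per library nor their H2 haplotypes, the sets of H2 alleles that differ between mouse strains.

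Class I molecules display peptides from inside the cell to CD8 T cells. A heavy chain folds with B2m, the TAP transporter brings peptides from the cytosol into the endoplasmic reticulum, tapasin holds the empty molecule at the transporter until a peptide fits, and natural killer cells read the absence of class I through inhibitory receptors. In skin, the growing hair bulb is known as a site of immune privilege with little class I protein, whereas the epidermis and the upper follicle carry it.

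H2-K1 (ENSMUSG00000061232, chr17:33996017-34000347) and H2-D1 (ENSMUSG00000073411, chr17:35262730-35267499) are the classical heavy chains, which present peptides to CD8 T cells. H2-T23 (ENSMUSG00000067212, chr17:36029773-36032855) encodes Qa-1, a nonclassical heavy chain that binds signal peptides of other class I molecules and is read by the CD94/NKG2A receptor of natural killer cells. H2-T22 (ENSMUSG00000056116, chr17:36037128-36042747) is a nonclassical heavy chain recognized by a subset of γδ T cells. Tap1 (ENSMUSG00000037321, chr17:34187553-34197225), Tap2 (ENSMUSG00000024339, chr17:34203527-34216321) and Tapbp, the gene of tapasin (ENSMUSG00000024308, chr17:33915899-33929292), also lie on chromosome 17. B2m (ENSMUSG00000060802, chr2:122147686-122153083) and Nlrc5, a coactivator that drives class I genes (ENSMUSG00000074151, chr8:94434356-94527272), lie elsewhere. The coordinates are those of the mm10 build.

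The promoters of the heavy chains and of B2m are shown because their levels fell into different patterns across the follicle. Classical class I promoters are known to hold an NF-κB site, an interferon-stimulated response element and, nearer to the start, an SXY module with a CRE-like box and an inverted CCAAT box, through which Nlrc5 acts. The sequences are those of RefSeq (GRCm38.p6), from 250 bases before to 50 bases after the annotated start, written 5′ to 3′ on the strand of the gene: H2-K1 at chr17:34000298-34000597 (minus strand), H2-D1 at chr17:35262844-35263143 (plus), H2-T22 at chr17:36042693-36042992 (minus), H2-T23 at chr17:36032652-36032951 (minus) and B2m at chr2:122147437-122147736 (plus). Capitals mark every match, on either strand, to the letters GGGGATTCC (an NF-κB core), TTTCNNTT (a part of the interferon-stimulated response element), CCAAT and TGACG (CRE-like), and no match overlapped another.
H2-K1: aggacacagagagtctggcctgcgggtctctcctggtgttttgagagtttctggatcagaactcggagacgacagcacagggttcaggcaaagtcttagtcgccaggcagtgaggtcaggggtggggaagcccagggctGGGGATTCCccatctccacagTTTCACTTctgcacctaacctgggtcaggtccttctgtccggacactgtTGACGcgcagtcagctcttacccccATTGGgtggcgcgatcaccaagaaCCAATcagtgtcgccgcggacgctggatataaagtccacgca
H2-D1: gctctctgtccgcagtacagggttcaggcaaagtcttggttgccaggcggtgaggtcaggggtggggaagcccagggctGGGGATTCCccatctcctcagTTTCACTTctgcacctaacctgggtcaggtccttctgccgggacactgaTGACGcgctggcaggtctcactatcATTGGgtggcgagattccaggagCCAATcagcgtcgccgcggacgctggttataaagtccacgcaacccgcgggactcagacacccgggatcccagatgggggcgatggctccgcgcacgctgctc
H2-T22: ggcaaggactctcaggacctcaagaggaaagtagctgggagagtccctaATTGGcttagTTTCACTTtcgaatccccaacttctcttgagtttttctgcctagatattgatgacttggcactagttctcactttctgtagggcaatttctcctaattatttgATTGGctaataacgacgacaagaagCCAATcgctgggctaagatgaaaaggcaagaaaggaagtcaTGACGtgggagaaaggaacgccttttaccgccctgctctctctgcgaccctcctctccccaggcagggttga
H2-T23: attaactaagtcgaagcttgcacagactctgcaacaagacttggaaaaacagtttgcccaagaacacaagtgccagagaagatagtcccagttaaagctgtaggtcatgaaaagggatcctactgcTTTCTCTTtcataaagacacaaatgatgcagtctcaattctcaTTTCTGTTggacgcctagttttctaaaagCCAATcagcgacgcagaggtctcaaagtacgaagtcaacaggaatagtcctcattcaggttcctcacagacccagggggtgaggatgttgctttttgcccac
B2m: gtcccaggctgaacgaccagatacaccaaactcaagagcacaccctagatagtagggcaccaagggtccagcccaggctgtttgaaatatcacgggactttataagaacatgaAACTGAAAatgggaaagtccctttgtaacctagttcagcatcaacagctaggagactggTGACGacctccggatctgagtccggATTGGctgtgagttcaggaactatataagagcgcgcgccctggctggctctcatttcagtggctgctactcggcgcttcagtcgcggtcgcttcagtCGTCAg

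The letters GGGGATTCC stood in the promoters of H2-K1, 111 bases before the start, and of H2-D1, 171 bases before it, each followed by TTTCACTT at 90 and 150 bases. Among all 32851 promoters of the table, 0.250% held GGGGATTCC, 23.9% TTTCNNTT, 37.4% CCAAT and 20.8% TGACG. All 4 motifs together were found in 5 promoters, or 0.0152%, and the promoters of H2-K1 and H2-D1 were among these. H2-K1 was counted there more than once, since it had a second, overlapping window with all 4 motifs. The windows of B2m and H2-T22 held the last 3 motifs and that of H2-T23 held TTTCNNTT and CCAAT. Tap1 had CCAAT and TGACG and Tapbp had CCAAT, and with these 7 of the 9 genes were matched to a promoter, while Tap2 and Nlrc5 were not. A match describes the letters of the window and is not a measured binding site. Only the letters given were searched, so NF-κB sites of other letters were not looked for. A window without GGGGATTCC, such as that of B2m, may still hold one.

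The libraries held 143938990 UMIs (PADI4 WT) and 143945294 UMIs (PADI4 cKO), and 8069 and 7394 cells passed the limits of the study on depth, genes and RNA composition. Of the barcodes with at least 2000 UMIs, 17 occurred in both libraries. Cells were grouped into 21 clusters with all genes of the H2 and pathway lists left out. Hair bulb clusters were the 7 with markers of the lower proximal cup (LPC), the germinative layer (GL), the inner root sheath (IRS) or the hair shaft (3702 PADI4 WT and 3684 PADI4 cKO cells). One of them is called by its leading genes Ednra and Krtap8-1, because the GL list led in raised markers (5 of 8) but the only marker among its leading genes was of the shaft, and another had LPC and GL markers in equal number (3 of 8 each). Upper clusters were the 3 with markers of the upper hair follicle (uHF), the interfollicular epidermis (IFE) or the sebaceous gland (SG) (1216 and 807 cells). The uHF cluster (790 and 658 cells) was led by Aldh3a1 and Pparg, a gene of sebaceous differentiation. The IFE cluster held 372 and 95 cells and the SG cluster 54 in each library. The IFE cluster had 8 of 8 IFE markers raised but also 7 of 8 uHF markers, so it was not epidermis alone by its markers. Outer root sheath (ORS) clusters were kept apart from both (2107 and 2214 cells), and cells without a clear marker list were left out. The cells of the groups differed in depth and cycling, with median UMIs of 16657 and 18911 in the bulb against 12410 and 12050 in the upper cells, and 15.96% and 13.4% of bulb cells in G1 against 62.6% and 66.3% of upper cells. The PADI4 WT library contained 2110 cells with Xist and no Y-linked UMIs and 5024 with the reverse, so cells of both sexes, whereas the other library contained 7272 of the first kind and 0 of the second. Padi4 itself had 74 UMIs in the bulb of the PADI4 WT library and 64 in that of the library labelled PADI4 cKO, or 1.12 (0.877 to 1.40) and 0.856 (0.659 to 1.09) CPM. In upper cells it had 3 and 12 UMIs, or 0.177 (0.036 to 0.517) and 1.05 (0.543 to 1.84) CPM, higher in the library labelled PADI4 cKO. The counts thus did not show a loss of Padi4, where in the gene the reads fall was not analysed here, and the second library is named by its label below.

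Levels are UMIs summed over the cells of a group and divided by the group's total UMIs, in CPM, and ratios are on the log2 scale after adding 0.5 UMIs to each sum. Intervals in parentheses are 95% intervals, from the exact Poisson method for CPM and the exact conditional binomial method for ratios. They cover counting error only. With 1 library per genotype, no difference between the groups has a replicate check and no test was made.

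The genes of the pathway differed in direction along the follicle. B2m, H2-T23, H2-T22 and Tap2 were over 2-fold higher in upper cells than in bulb cells in both libraries, Tapbp was at or near that size, and the classical heavy chains H2-K1 and H2-D1 were as high or higher in the bulb. Of 8 genes with enough UMIs, 5 were past a log2 ratio of 1 in the PADI4 WT library (B2m, H2-T22, H2-T23, Tap2 and Tapbp), where 11.1% of 12698 genes were above 1 and 7.88% below -1. In the library labelled PADI4 cKO 4 of 8 were past 1 (the same genes without Tapbp), where 10.7% of 12643 genes were above 1 and 9.63% below -1. None of the 8 was below -1 in either library. The median log2 ratio of the 8 was 1.33 and 1.29, beside -0.00 and 0.02 over all genes compared.

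**Figure D1:**
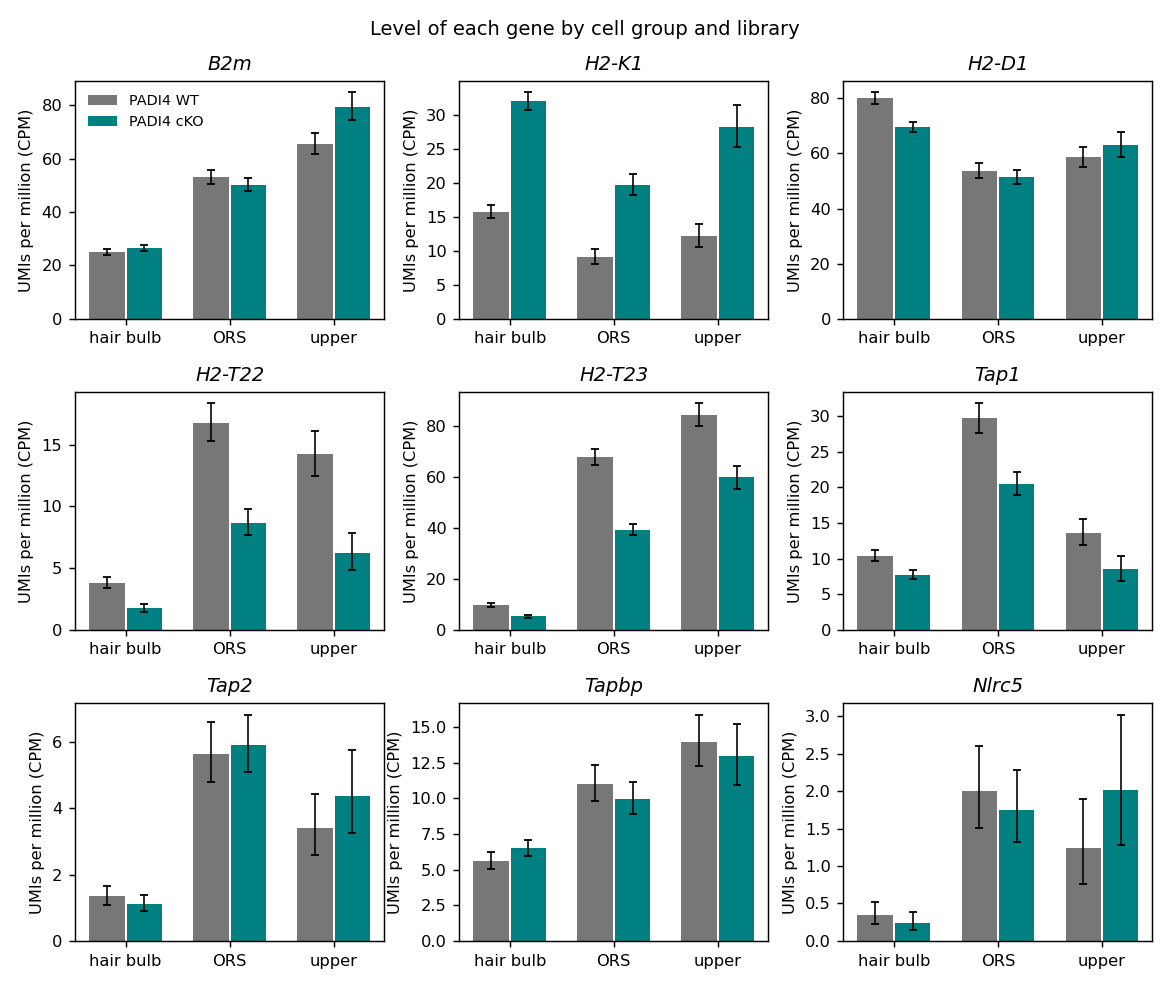
Level of each of the 9 genes in hair bulb, ORS and upper cells of both libraries; bars are CPM (UMIs scaled to the group's total, axis from 0, a scale of its own for each gene) and whiskers are 95% Poisson intervals for counting error. In the PADI4 WT library B2m stands at 25.0 CPM in bulb and 65.7 CPM in upper cells and H2-T23 at 9.76 and 84.3 CPM, while H2-D1 stands at 80.0 and 58.7 CPM.

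B2m, the light chain that every class I molecule needs, was at 25.0 CPM (23.8 to 26.3) in PADI4 WT bulb cells and at 65.7 CPM (61.9 to 69.7) in the upper cells. The library labelled PADI4 cKO had 26.6 CPM (25.4 to 27.8) and 79.5 CPM (74.5 to 84.9). The upper cells were thus higher by 1.39 (1.28 to 1.503) and 1.58 (1.47 to 1.69) on the log2 scale. B2m UMIs were found in 31.8% of bulb and 52.5% of upper cells of the PADI4 WT library, beside 36.9% and 58.1% in the other. These shares depend on depth. With every cell thinned to 2000 UMIs they were 4.46% and 12.8% for PADI4 WT, and 4.64% and 12.3% for PADI4 cKO. Over single clusters of the PADI4 WT library, the 7 bulb clusters lay between 17.5 and 33.2 CPM and the 3 upper clusters between 45.3 and 74.6 CPM. In the other library they lay between 17.7 and 39.2 CPM and between 43.0 and 87.4 CPM. The share of all genes with such separate ranges was not counted.

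H2-T23 showed the widest gap of the 9 genes. The nonclassical chain was at 9.76 CPM (9.02 to 10.5) in bulb cells and 84.3 CPM (80.0 to 88.8) in upper cells of the PADI4 WT library, a log2 ratio of 3.11 (2.98 to 3.25). It was at 5.23 CPM (4.72 to 5.78) and 59.7 CPM (55.3 to 64.4) in the library labelled PADI4 cKO, a log2 ratio of 3.51 (3.33 to 3.70). In thinned PADI4 WT cells, 2.32% of bulb and 16.5% of upper cells had an H2-T23 UMI, and in thinned PADI4 cKO cells 1.30% and 11.2%. The bulb clusters spanned 4.34 to 20.1 CPM (PADI4 WT) and 2.23 to 10.5 CPM (PADI4 cKO), and the lowest upper clusters were at 41.3 and 39.6 CPM. Empty droplets had 30.4 and 21.9 CPM of H2-T23. At the upper bound of free RNA, 7.74% and 7.64% of the UMIs of epithelial cells as estimated from collagen genes, it made up at most 24.1% and 32.0% of the H2-T23 UMIs of bulb cells. H2-T22 followed the same direction at a lower count, with 252 bulb and 241 upper UMIs in the PADI4 WT library and 130 and 71 in the other. Its levels were 3.80 CPM (3.35 to 4.30) and 14.2 CPM (12.5 to 16.1) in the first, and 1.74 CPM (1.45 to 2.06) and 6.22 CPM (4.86 to 7.85) in the second. The log2 ratios of upper over bulb were 1.90 (1.64 to 2.16) and 1.84 (1.40 to 2.27).

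H2-D1 went the other way. The classical chain was at 80.0 CPM (77.9 to 82.2) in bulb cells and 58.7 CPM (55.2 to 62.5) in upper cells of the PADI4 WT library, a log2 ratio of -0.45 (-0.54 to -0.35). The library labelled PADI4 cKO had 69.6 CPM (67.7 to 71.5) and 63.1 CPM (58.6 to 67.9), a log2 ratio of -0.14 (-0.26 to -0.03). An H2-D1 UMI was present in 67.8% of bulb and 50.3% of upper cells of the PADI4 WT library, and after thinning in 16.1% and 12.5%. The thinned shares of the other library were 12.5% and 12.0%, whose intervals overlapped.

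H2-K1, the other classical chain, had log2 ratios of -0.38 (-0.60 to -0.16) in the PADI4 WT library, from 15.7 CPM (14.8 to 16.7) in bulb and 12.1 CPM (10.5 to 13.9) in upper cells, and of -0.18 (-0.35 to -0.01) in the library labelled PADI4 cKO, from 32.0 CPM (30.7 to 33.3) and 28.2 CPM (25.2 to 31.5). Its sign was not stable: at a clustering resolution of 2.0 the ratios were 0.04 and 0.15, and that of PADI4 cKO was 0.11 with thinned cells and 0.06 with at least 4000 UMIs per cell. The PADI4 WT ratio of H2-D1 was negative under each alternative, whereas that of the other library reached 0.03 with thinned cells. The 2 genes thus differed from B2m and the nonclassical chains, whose ratios stayed above 0 under each alternative in both libraries.

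**Figure D2:**
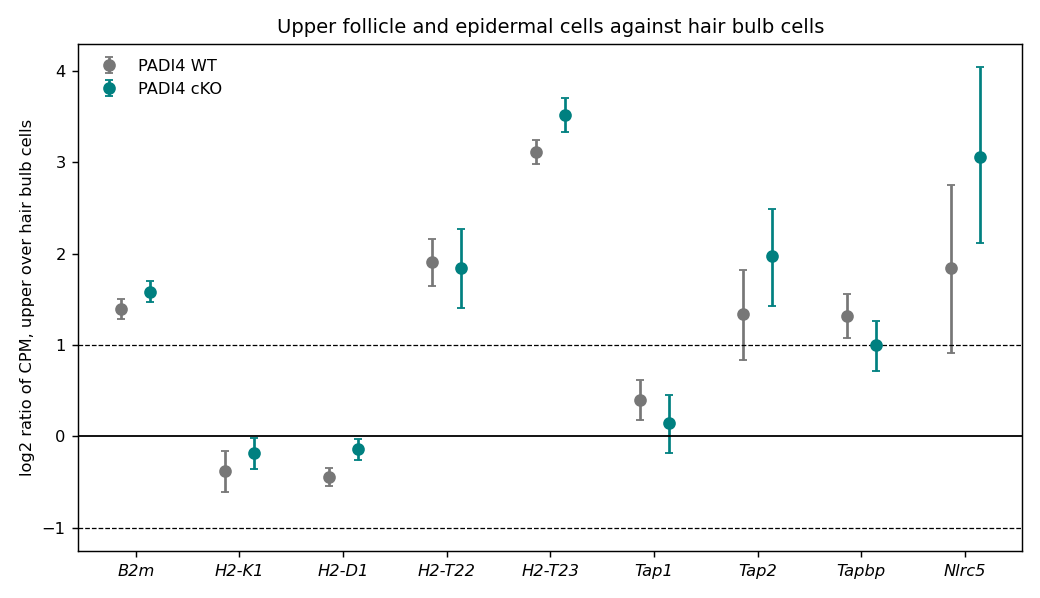
Log2 ratio of CPM in upper over hair bulb cells for the 9 genes, 1 point per library with its 95% conditional binomial interval for counting error; dashed lines mark 1 and -1. B2m, H2-T22, H2-T23 and Tap2 lie above 1 in both libraries, whereas H2-K1 and H2-D1 lie between -0.45 and -0.14 with the groups as drawn (signs turn for H2-K1 at resolution 2.0, for H2-K1 of PADI4 cKO at 4000 UMIs per cell and for both in thinned PADI4 cKO cells).

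The genes of peptide supply were split as well. Tap2 was at 1.36 CPM in bulb and 3.42 CPM in upper cells of the PADI4 WT library (90 and 58 UMIs), a log2 ratio of 1.34 (0.83 to 1.83). In the library labelled PADI4 cKO it was at 1.12 and 4.38 CPM (84 and 50 UMIs), a ratio of 1.97 (1.43 to 2.48). Its partner Tap1, which forms the transporter with it, was at 10.3 and 13.6 CPM (0.40, 0.18 to 0.61) and at 7.69 and 8.50 CPM (0.15, -0.18 to 0.46). Tapbp was at 5.61 and 14.0 CPM in PADI4 WT cells, a ratio of 1.32 (1.08 to 1.56), and at 6.50 and 13.0 CPM in PADI4 cKO cells, a ratio of 1.00 (0.72 to 1.26) that fell just under the threshold. Nlrc5 was near the limit of detection, with 23 bulb and 21 upper UMIs in the PADI4 WT library and 18 and 23 in the other. This coactivator was nonetheless higher in upper cells, at 1.24 against 0.347 CPM (1.84, 0.91 to 2.75) and at 2.01 against 0.241 CPM (3.06, 2.11 to 4.04). Below 100 UMIs, it was not counted among the 8.

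Cell cycle and composition moved with the comparison. Among G1 cells alone, chosen as an alternative after the data had been seen, the log2 ratios were 1.24 and 1.29 for B2m, 2.68 and 2.77 for H2-T23, 1.41 and 1.23 for H2-T22, 1.43 and 1.01 for Tapbp, 0.94 and 0.92 for Tap2, and -0.27 and -0.48 for Tap1 (PADI4 WT first). Tap1 had no stable direction, since its ratio was below 0 in 2 of 19 alternatives in the PADI4 WT library, G1 cells and Xist cells (-0.25), and in 7 of 18 in the other, with ranges of -0.27 to 1.19 and -0.48 to 1.16. The IFE cluster, which also had uHF markers raised, was set alone against the bulb, likewise chosen afterwards. B2m then had ratios of 0.95 and 0.93 and H2-T23 of 2.08 and 2.93, so the uHF cluster led by Aldh3a1 and Pparg carried a part of both. Immune markers were sparse: of 12, 6 had no UMI in bulb cells of each library and 7 (PADI4 WT) or 8 (PADI4 cKO) had none in upper cells, with Tyrobp and Lyz2 at 0 in each. Their summed level was 9.82 and 8.57 CPM in the bulb and 3.42 and 4.73 CPM in the upper cells. In the bulb most of it was the class II gene H2-Ab1, with 520 of 651 and 473 of 641 UMIs, and without it the sums were 1.98 and 2.25 CPM in the bulb and 1.77 and 2.72 CPM in the upper cells. Endothelial markers summed to 17.4 and 16.5 CPM in the bulb and 8.20 and 9.37 CPM in the upper cells, and fibroblast markers to 5.82 and 5.52 against 11.0 and 6.66 CPM. Without Egfl7, the endothelial marker with the most UMIs, the sums were 1.63 and 1.08 against 0.590 and 1.40 CPM. Without Col1a2, the fibroblast marker with the most UMIs, they were 2.96 and 2.98 against 1.30 and 1.31 CPM, lower in the upper cells. With every cell left out that had a UMI of an immune, endothelial, fibroblast or melanocyte marker, B2m had ratios of 1.55 and 1.78 and H2-T23 of 3.07 and 3.46. Over both libraries, only 32.3% of the cells had no such UMI.

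The ORS, the outer layer that runs from the bulb to the upper follicle, stood near the upper cells for the nonclassical chains and held more Tap1 than the bulb or the upper cells in both libraries. Over the bulb cells, H2-T23 was higher by 2.79 and 2.91 on the log2 scale, H2-T22 by 2.14 and 2.31, Tap2 by 2.05 and 2.39 and Tap1 by 1.52 and 1.41 (PADI4 WT and PADI4 cKO). B2m was higher by 1.08 and 0.92. H2-D1 had ratios of -0.58 and -0.44 and H2-K1 of -0.79 and -0.70. Past 1 were 5 of 8 genes in the PADI4 WT library, where 12.7% of 12917 genes were above 1 and 6.02% below -1, and 4 of 8 in the other, where 12.9% of 13078 genes were above 1 and 6.58% below -1. Tap1 stood at 29.7 CPM (27.7 to 31.8) in PADI4 WT ORS cells, above its 13.6 CPM in upper cells. The same held at 20.4 CPM (18.9 to 22.1) and 8.50 CPM in the library labelled PADI4 cKO. The summed melanocyte markers were also higher in ORS cells, at 127 and 161 CPM. They stood at 69.2 and 91.9 CPM in the bulb and 56.0 and 97.9 CPM in upper cells. Most of the ORS sum was Mitf, with 3364 of 3556 and 4881 of 5063 UMIs. Without Mitf the sums were 6.87 and 5.79 CPM in ORS, 28.6 and 30.7 CPM in bulb and 4.78 and 4.12 CPM in upper cells. The part of these markers in the ratios above was not tested.

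**Figure D3:**
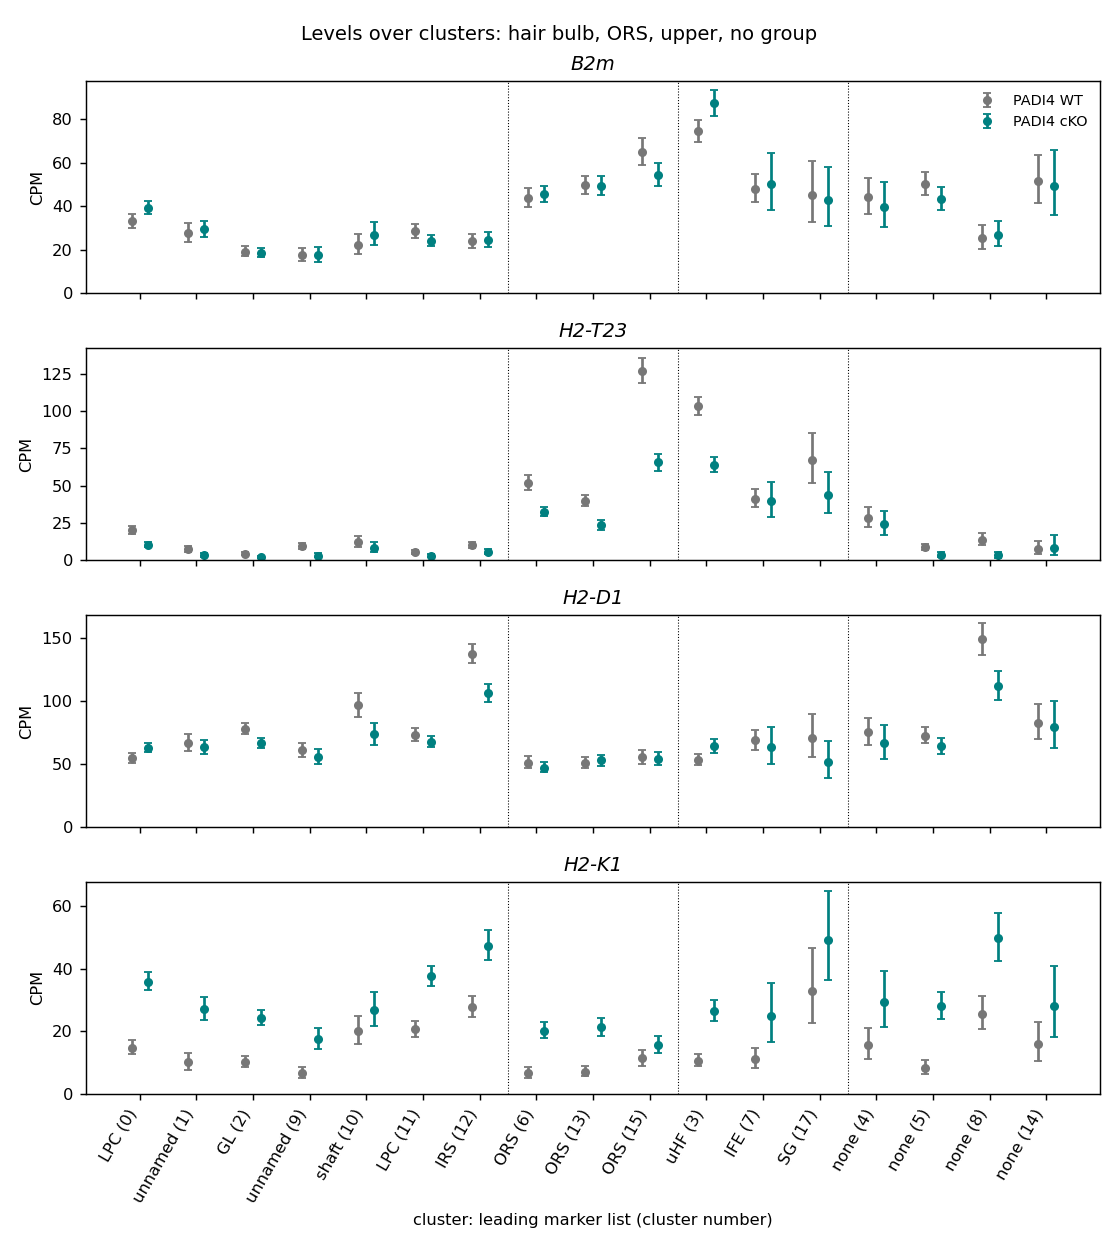
Level (CPM, linear axis from 0) of B2m, H2-T23, H2-D1 and H2-K1 in the 17 clusters with at least 50 cells in each library, with 95% Poisson intervals for counting error; clusters are named by their leading marker list where it is clear, otherwise unnamed or in no group (none), and ordered as bulb, ORS, upper and no group. B2m and H2-T23 have their lowest values in bulb clusters, H2-D1 peaks in the IRS cluster (138 and 107 CPM) and a cluster led by Krt75 (149 and 112 CPM), and H2-K1 lies higher in PADI4 cKO in each cluster.

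Across the 17 clusters with at least 50 cells in each library, the order of levels differed from gene to gene. B2m was highest in the uHF cluster, at 74.6 and 87.4 CPM, and lowest in the bulb cluster led by Ednra and Krtap8-1, at 17.5 and 17.7 CPM. H2-T23 was highest in an ORS cluster with all 8 ORS markers raised, at 127 and 65.6 CPM, followed by the uHF cluster at 103 and 64.1 CPM. It was lowest in a GL cluster, at 4.34 and 2.23 CPM. H2-T22 and Tap2 had their extremes in the same clusters as H2-T23, with H2-T22 at 22.2 and 11.3 CPM in that ORS cluster and at 1.49 and 0.483 CPM in the GL cluster. In that ORS cluster the summed melanocyte and fibroblast markers were also at their highest, at 214 and 245 CPM and at 18.8 and 24.2 CPM. Over all ORS cells, most of each sum was 1 gene. These were Mitf (3364 of 3556 and 4881 of 5063 UMIs) and Col1a2 (292 of 362 and 346 of 465 UMIs). The part of these markers in the levels was not tested. Most neighbors in the order of a gene did not differ beyond counting error, with overlapping intervals in 13 to 16 of 16 neighboring pairs.

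The classical chains had their own order inside the bulb. H2-D1 was highest in a cluster led by Krt75, which marks the companion layer and was put in no group, at 149 and 112 CPM, and next in the IRS cluster, at 138 and 107 CPM. Within the bulb group the IRS cluster was thus the highest for H2-D1, followed by the hair shaft cluster at 96.8 CPM (87.6 to 106.8) and 73.7 CPM (65.3 to 83.0). H2-K1 was also higher in the IRS cluster than in the other 6 bulb clusters, at 27.7 CPM (24.5 to 31.1) and 47.3 CPM (42.8 to 52.2), with the next bulb cluster, an LPC cluster, at 20.6 CPM (18.1 to 23.4) and 37.6 CPM (34.6 to 40.9). Outside the bulb, the SG cluster, an upper cluster, held H2-K1 at 33.0 CPM (22.6 to 46.6) and 49.0 CPM, from 32 and 49 UMIs. It was the highest of the 17 clusters in PADI4 WT, and in PADI4 cKO it came after the cluster led by Krt75 (49.6 CPM). Not all clusters with shaft markers were high, since the cluster led by Ednra and Krtap8-1 had the lowest H2-K1 of the bulb clusters, at 6.68 CPM (5.00 to 8.74) and 17.5 CPM (14.4 to 21.1). B2m in the IRS cluster, at 23.9 CPM (21.0 to 27.1) and 24.5 CPM (21.3 to 28.1), lay inside the range of the other bulb clusters.

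Pearson correlations of log2 CPM over the 34 values (17 clusters in each library, which share library, depth and genotype) described the same split, with 0.77 between B2m and H2-T22, 0.76 between B2m and H2-T23, -0.41 between B2m and H2-D1 and -0.12 between B2m and H2-K1. After centering within library, H2-D1 and H2-K1 had 0.67, against 0.37 before it. Of 12089 genes with at least 500 UMIs, those most like B2m were Ebpl (0.920), Fbln2 (0.914), Zfp629 (0.907), Ifi27 (0.906), an interferon-induced gene, and Lrig1 (0.905), a uHF marker used for the cluster names. Those most like H2-K1 were Gm21887 (0.800), Gm47283 (0.782), CAAA01118383.1 (0.781), Gm11361 (0.690) and Atf5 (0.683). All 5 were higher in the library labelled PADI4 cKO, by 0.24 to 1.98 in the bulb and 0.33 to 2.05 in the upper cells on the log2 scale.

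Between the libraries, H2-K1 was higher and H2-T22 and H2-T23 were lower in the library labelled PADI4 cKO. H2-K1 was at 15.7 CPM in PADI4 WT and 32.0 CPM in PADI4 cKO bulb cells, a log2 ratio of 1.02 (0.92 to 1.13), and at 12.1 and 28.2 CPM in upper cells, a ratio of 1.22 (0.97 to 1.48). In ORS cells the ratio was 1.11 (0.90 to 1.33). The ratio of H2-T22 was -1.13 (-1.45 to -0.82) in bulb, -1.19 (-1.60 to -0.80) in upper and -0.95 (-1.17 to -0.73) in ORS cells. That of H2-T23 was -0.90 (-1.08 to -0.72), -0.50 (-0.63 to -0.36) and -0.78 (-0.89 to -0.68), the middle value just inside -0.5. Tap1 had -0.43 (-0.59 to -0.27) in bulb, -0.68 (-1.04 to -0.33) in upper and -0.54 (-0.69 to -0.39) in ORS cells, but 0.10 in thinned bulb cells. B2m differed little, with 0.09 (-0.01 to 0.18) and 0.28 (0.15 to 0.40), as did H2-D1, with -0.20 (-0.26 to -0.15) and 0.10 (-0.04 to 0.24).

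At a threshold of 0.5, 1 of 8 genes (H2-K1) was above in bulb cells, where 1.62% of 13320 genes were, and 2 of 8 (H2-T22 and H2-T23) were below -0.5, where 2.18% were. In upper cells 1 of 8 (H2-K1) was above, beside 3.66% of 11135 genes, and 2 of 8 (H2-T22 and Tap1) were below, beside 5.79%. The median ratio of the 8 genes was -0.24 in bulb and -0.00 in upper cells, beside -0.01 and 0.02 over all genes. The heavy chains that passed the threshold differed in opposite directions.

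**Figure D4:**
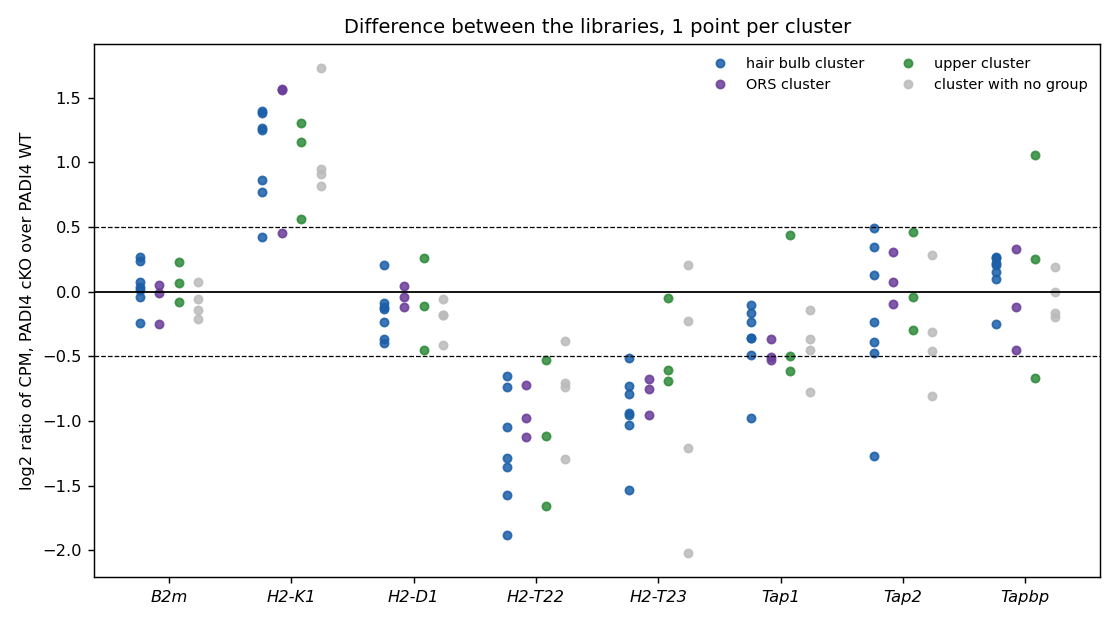
Log2 ratio of CPM, PADI4 cKO over PADI4 WT, for 8 genes (Nlrc5 is left out for its low counts); each point is 1 of 17 clusters, colored by its group, and dashed lines mark 0.5 and -0.5. H2-K1 lies above 0 in 17 of 17 clusters and H2-T22 below 0 in 17 of 17, whereas B2m is spread around 0, from -0.25 to 0.27.

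The differences in H2-K1, H2-T22 and H2-T23 were seen in nearly all clusters. H2-K1 was higher in the library labelled PADI4 cKO in 17 of 17 clusters, by 0.42 to 1.73 on the log2 scale, with an interval above 0 in 14. H2-T22 was lower in 17 of 17, from -1.88 to -0.38, with an interval below 0 in 12. H2-T23 was lower in 16 of 17, and Tap1 in 16 of 17 with an interval below 0 in 8. B2m was higher in 9 and lower in 8, and H2-D1 was lower in 14, from -0.45 to 0.26. The clusters of 1 library are not replicates, since they share its animals, library preparation and free RNA. Empty droplets, which hold free RNA of lysed cells, showed the same direction, with H2-K1 at 19.4 CPM (16.02 to 23.2) in the PADI4 WT and 34.2 CPM (30.2 to 38.6) in the other library, and H2-T22 at 8.53 and 4.93 CPM.

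The libraries differed in the sex of their cells. When only cells with Xist and no Y-linked UMIs were compared, H2-K1 had ratios of 1.04 in bulb, 1.07 in upper and 0.91 in ORS cells, H2-T22 of -0.99, -1.39 and -1.11, and H2-T23 of -0.58, -0.88 and -0.55. Inside the PADI4 WT library, Xist cells over Y cells gave -0.05, 0.27 and 0.31 for H2-K1 and -0.13, 0.24 and 0.25 for H2-T22 in the same groups. H2-T23 differed between Xist and Y cells in both directions, with -0.25 (-0.55 to 0.04) in bulb, 0.41 (0.20 to 0.62) in upper and -0.35 (-0.51 to -0.20) in ORS cells. Tap1 differed there in bulb cells, by 0.61 (0.36 to 0.85). When only Xist cells of the 2 libraries were compared, Tap1 had ratios of -0.84 (-1.06 to -0.61) in bulb, -0.43 (-1.07 to 0.32) in upper and -0.67 (-0.88 to -0.46) in ORS cells. Genotype cannot be told apart from other differences between the animals of the libraries, such as their H2 alleles. The heavy chain genes also share sequence: of the 31-base stretches in the last 500 bases of the transcripts, 26.4% of those of H2-K1 occur in other genes, most often H2-D1, 34.5% of those of H2-D1, 45.0% of those of H2-T22, mostly in H2-T10, and 31.2% of those of H2-T23, so that their counts are less certain than those of B2m, Tap2 and Nlrc5, which share none.

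Other genes of the pathway were taken from fixed lists and compared between upper and bulb cells in the same way, against the backgrounds of 11.1% and 10.7% above 1. Of 5 genes of the inducible proteasome and its activator, which shape peptides for class I, 2 were past 1 in both libraries. These were Psmb8 with 1.90 and 2.73 and the activator gene Psme2 with 1.21 and 1.26. The activator gene Psme1 had 0.97 and 0.96. The other inducible subunits did not follow Psmb8, with -0.64 and -0.15 for Psmb9 (14 upper UMIs in each library) and 0.15 and 0.36 for Psmb10. Of 8 subunits of the constitutive proteasome none was past 1 in either direction, with medians of -0.33 and -0.31, and of 8 genes of peptide loading and trimming again none, with medians of -0.15 and -0.14. Among other class I and class I-like genes, 14 of 16 were listed and 3 had enough UMIs in both libraries, of which Mr1, which presents vitamin B metabolites to T cells, was past 1 in both (1.32 and 1.34). H2-T10 and H2-Bl were not among the listed genes, so no UMI could be counted for them. Whether reads of H2-T10 were counted as H2-T22 was not tested.

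Signals upstream of class I genes were mixed. Of 11 promoter factors with enough UMIs none was past 1 in both libraries. Of 12 interferon receptors and kinases 2 were, Ifnar2 with 1.74 and 1.66 and Il10rb with 1.36 and 1.44, and another 4 in only one library. Interferon genes themselves were hardly seen, since Ifnb1, Ifne, Ifng, Ifnl2, Ifnl3 and Ifna4 had no UMI in these cells. Of 20 interferon response genes, 8 had enough UMIs and 3 were past 1 in both, Ifi27 with 2.98 and 2.53, Ifitm3 with 2.12 and 1.60 and Ifi35 with 1.15 and 1.32. Of 7 repressors of class I with enough UMIs, Socs3, an inhibitor of cytokine signaling, was past 1 in both (1.75 and 1.21).

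Genes tied to the immune privilege of the follicle differed in direction. Of 5 with enough UMIs, Tgfb3 (2.16 and 2.54) and Tgfb2 (1.34 and 2.29) were higher in upper cells, and Tgfb1 (-1.25 and -1.25) was higher in the bulb. These are the transforming growth factors β, which dampen T cell responses. Of 7 MHC class II genes, which serve CD4 T cells, 2 had enough UMIs, and they differed in direction. H2-Ab1 was higher in bulb cells, with ratios of -2.22 and -1.62, whereas H2-DMa had 0.56 and 0.13. H2-Aa, the partner chain of H2-Ab1, had 0 and 1 UMIs in bulb cells, and Cd74 had 49 and 74. None of 5 NKG2D ligands had enough UMIs in both libraries. H60c had enough in PADI4 WT alone, with 26 bulb and 249 upper UMIs, a ratio of 5.20 (4.64 to 5.87). It had 6 and 16 UMIs in the library labelled PADI4 cKO, a ratio of 4.06 (2.70 to 5.77).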

How the data were processed

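The deposited matrices give, for each gene and droplet, the raw UMI counts that the authors made with Cell Ranger (7.1.0 per the file headers, mm10 per the labels) before any filter on droplets; whether intronic reads were counted is not given in the sources used here. Both samples were mapped to a group by their genotype label, since the protocol they share names Padi4 fl/fl for both.

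The limits of the study were kept: 2000 to 60000 UMIs and 1000 to 8000 genes per cell, no more than 20% mitochondrial and 1% hemoglobin UMIs and a ribosomal share between the 5th and 99th percentile. CellBender and Harmony were not run. Counts were scaled to 10000 UMIs per cell, 1000 variable genes were chosen without the H2 and pathway genes and corrected by regression for S and G2M scores, and 50 components and 15 neighbors gave Leiden clusters at resolution 1.0 (Scanpy 1.11.5, igraph 0.11.9, Python 3.11.15, numpy 2.4.6, scipy 1.17.1). A cluster took the group of the list with the largest share of markers raised (at least 1.5-fold and 5 CPM, at least 3 markers); clusters with ties across groups, 90% or more of cells from 1 library, or more markers of another group among the 10 leading genes were left out, as were fibroblast and melanocyte clusters. This rule was set after the clusters were seen.

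The counts of a group were summed, and genes with at least 100 UMIs over the cells compared entered the background. Thresholds were a log2 ratio of 1 between cell groups and 0.5 between libraries. The ratio was tested on simulated data. Named genes were the 9 genes, the 5 genes most correlated with B2m and with H2-K1, up to 4 genes per list past 1 in both libraries, genes with no UMI, and markers. The members and lists were chosen with earlier results of these data known. Alternatives numbered 20 planned and 3 added after seeing the data. Free RNA was bounded from the collagen genes of cells and of droplets with at most 99 UMIs. Doublets were kept.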

Additional observations from a re-analysis of the deposited data

How the results depend on the processing

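Counts of genes past the thresholds moved by more than 1.5 times in these cases. For upper over bulb cells in the PADI4 WT library (5 genes past 1), 3 were past it as UMIs per cell without scaling, 2 with cells thinned to 2000 UMIs, 3 with a minimum of 500 UMIs per gene and 2 among Xist cells, which was chosen after seeing the data. In the library labelled PADI4 cKO (4 genes), the counts were 2 with thinned cells, 2 without cells holding markers of other cell types and 2 with the minimum of 500 UMIs. Between libraries in upper cells (3 genes past 0.5), it was 1 with thinned cells and 1 with the minimum of 500 UMIs. These settings leave fewer UMIs, cells or genes, except UMIs per cell, which are not divided by depth. Median UMIs in the PADI4 WT library were 12410 in upper and 16657 in bulb cells. As UMIs per cell, the PADI4 WT ratio moved from -0.38 to -0.74 for H2-K1 and from -0.45 to -0.81 for H2-D1. Nlrc5 reversed between libraries, in bulb cells from -0.52 to 1.57 without cells holding other markers and to 1.27 in G1 cells, and in upper cells from 0.70 to -0.094 among Xist cells, at counts too low to set a direction. H2-K1 between libraries ranged from 0.66 to 1.20 in bulb and from 1.07 to 1.48 in upper cells, H2-T22 from -1.20 to -0.87 in bulb cells, and H2-T23 upper over bulb from 2.08 to 3.81 in the PADI4 WT library. The Scrublet threshold of the PADI4 cKO library, 0.198, was applied to both after that of PADI4 WT called 1 cell, and removed 296 cells from each. No paired analysis was possible because each genotype has 1 library. Depth limits Nlrc5 and Tap2 most.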

Other observations

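A small cluster that led with Smoc1, Crabp2 and Skint1 and had 6 of 8 ORS markers raised (40 PADI4 WT and 58 PADI4 cKO cells) held Nlrc5 at 31.3 CPM (16.2 to 54.6, 12 UMIs) and 20.7 CPM (11.0 to 35.3, 13 UMIs). In the same cluster B2m was at 141 and 93.8 CPM, H2-T23 at 195 and 93.8 CPM and H2-K1 at 78.2 and 33.4 CPM (30 and 21 UMIs), so that H2-K1 was lower in the library labelled PADI4 cKO there, with fewer than 50 PADI4 WT cells. The cluster was picked out after its values were seen.

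For other genes of the H2 region (chr17:33974659-37483552), the differences between libraries were few and ran in both directions. With the 9 genes left out, 84 entered the comparison in bulb cells, and 3 were above 0.5 and 4 below -0.5, or 8.33%, beside 4.76% of 609 genes on the rest of chromosome 17 and 3.75% of all 13228 genes outside the region. In upper cells it was 13.2% of 68 genes, beside 8.05% and 9.41%, and no test of the region was made. BC023719 had 61 UMIs in PADI4 WT bulb cells and 775 in PADI4 cKO bulb cells, a log2 ratio of 3.48, and 17 and 122 UMIs in upper cells (3.38). It was named after its values were seen.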
